A study of Bos taurus with 8 samples.

Results

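The light chain of major histocompatibility complex (MHC) class I and 5 genes of the machinery that loads class I with peptide were followed in bovine blood neutrophils: B2M, TAP1, TAP2, TAPBP, CALR and PDIA3. Their members on the array were all non-control probes whose transcript accession RefSeq assigns to 1 of these 6 genes, which gave 16 of 43653 probes, for 6 of 12639 named genes. The genes were picked on a report of these same arrays, with log2 differences of intensity between the 2 time points already in view, so their own differences are given as a description and carry no p-value. The samples were neutrophils of female Holstein Friesian cows around calving, taken from the jugular vein. The first group (C-14) was sampled at day -14 relative to the expected calving and the second (C+7) at day 7 after calving itself, with 4 arrays in each, Cy3-labelled RNA in a single colour, and no treatment named for either. The study names 3 cows for 4 arrays a group, and which cow each array came from is not given, so the p-values given for other genes measure only the spread between these arrays, which may be technical in part.

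Class I molecules display peptides made inside the cell to CD8+ T cells. A heavy chain pairs with the light chain, beta-2-microglobulin (B2M), and the pair stays in the endoplasmic reticulum until it has bound a peptide. TAP1 and TAP2 form the transporter that carries peptides in from the cytosol, TAPBP (tapasin) bridges the transporter and the empty class I molecule, CALR (calreticulin) is a chaperone that binds the glycan of the heavy chain, and PDIA3 (ERp57) is a disulfide isomerase joined to tapasin. Nearly all nucleated cells carry class I, neutrophils and lymphocytes included.

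Signal was low on these arrays. Between 0.887% and 10.3% of the probes were called well above background by the scanner software, and the share was lowest on C+7 replicate 4 (387 probes) and C-14 replicate 4 (761 probes). The 6 other arrays had 2201 to 4486 such probes and correlated with each other at 0.69 to 0.95 over 1091 probes. Over these probes C-14 replicate 4 correlated with them at 0.53 to 0.70 and C+7 replicate 4 at -0.080 to 0.26. The probes were picked by detection on the 6 arrays, which favours those arrays in this comparison. Results are given for the 6 brighter arrays, set apart by having over 2000 detected probes. Where a probe passed the filter over all 8 arrays, results are given for those too. On C-14 replicate 2, 330 of 1421 probes (23.2%) that were well above background on the 5 other brighter arrays were not detected, against 0.908% to 8.63% for the other brighter arrays. The arrays lay on 2 slides, of which 0 held both groups, so the effects of slide and of time cannot be told apart throughout. Of the neutrophil markers with a probe, among them S100A12, MMP9, LTF, PGLYRP1 and CXCR1, 4 to 6 of 11 were detected on the brighter C-14 arrays and 7 to 8 on the brighter C+7 arrays, while S100A8 and ITGAM were well above background on none of the 8.

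Detection of the class I genes was uneven. Of the 16 probes, 7 were well above background on at least 1 array and 9 on none, and 25 of the 128 values (a probe on an array) were well above background. The 7 probes came from 4 genes: 1 of 4 B2M probes, 4 of 6 CALR probes, the TAPBP probe and the TAP2 probe. No spot of these probes was saturated, and each probe had 1 spot. The pattern was common on these arrays: of 594 genes with a probe detected on all 6 brighter arrays and at least 2 probes, 496 (83.5%) also had a probe detected on none.

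**Figure D1:**
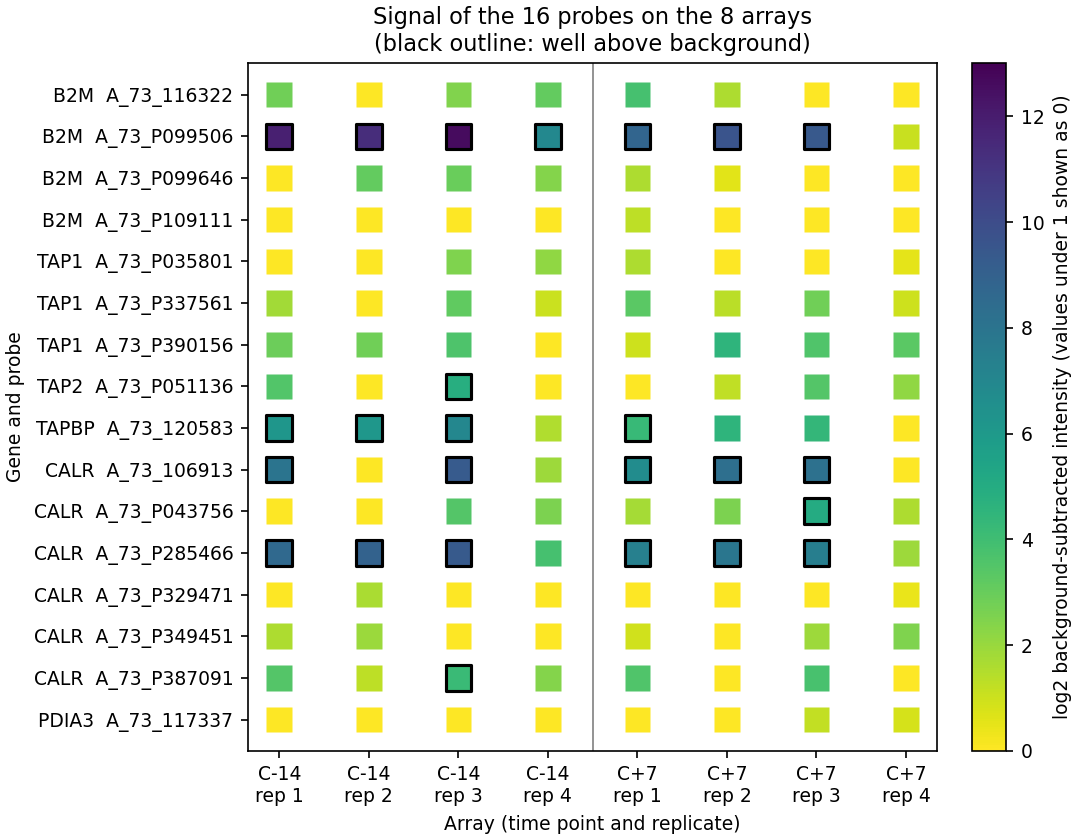
Each row is 1 of the 16 probes and each column 1 of the 8 arrays, the shade gives log2 background-subtracted intensity, and a black outline marks a spot that the scanner software called well above background. Only B2M probe A_73_P099506 was called on 7 arrays, while 9 probes, among them all 3 of TAP1 and the 1 of PDIA3, were called on none.

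B2M, the light chain shared by all class I molecules, was read by 4 probes, of which 1 gave a level. Probe A_73_P099506 read background-subtracted intensities of 3771, 2646, 6253 and 121 on C-14 replicates 1 to 4. It read 452.5, 775.1, 694 and 2.1 on C+7 replicates 1 to 4, the last not well above background. All 3 brighter C-14 arrays lay above all C+7 arrays, and replicate 4 of each group lay lowest in its group. Array brightness is part of these raw intensities, so the values were next scaled on each array to the 75th percentile over probes detected on all arrays compared.

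Over the 6 brighter arrays the scaled log2 level of B2M was 2.79, 2.95 and 3.11 on C-14 replicates 1 to 3, and 0.74, 1.08 and 1.18 on C+7 replicates 1 to 3. The groups did not overlap. The mean level was 2.95 ± 0.16 before calving and 1.00 ± 0.23 after it (SD, n = 3 each), a log2 difference of -1.95 (SE 0.17), or 3.87-fold higher before calving. Of 2204 probes tested with limma on these arrays, 113 (5.13%) were past an adjusted p of 0.05, of which 71 (3.22% of the 2204) were lower and 42 (1.91%) higher after calving. B2M was 1 of the 71, and since this contrast brought the gene into view, nothing is read from that. The median difference over all tested probes was -0.06.

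The direction of the B2M value was negative in all 18 alternative ways of processing the 6 brighter arrays, from -2.59 to -0.42. Several of these could not turn the sign and returned the same -1.95. They changed only the filter, took 1 probe a gene, or used a replicate block, trend and robust fitting or a floor that B2M did not reach. Leaving out single arrays gave -2.08 to -1.80, the software's processed signal -1.41 and the addition of C-14 replicate 4 -1.56. In the authors' log2 values, where the median probe stood at 1.03, B2M stood at -0.42. It lay below the median of all tested probes in each of the 18.

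With all 8 arrays the groups overlapped, as they did for most of the 470 probes tested: 0.213% had all C+7 values below all C-14 values and 0.851% all above. The scaled log2 level of B2M, from the processed signal, was 1.76, 2.83, -0.87 and 0.067 on the C-14 arrays and -0.62, 0.29, 0.60 and -4.10 on the C+7 arrays. C-14 replicate 3 fell below 3 of the C+7 arrays here, where on the background-subtracted scale it had been the highest. The means were 0.95 ± 1.66 and -0.96 ± 2.16 (SD, n = 4 each), with a difference of -1.91 (SE 1.19), and the 17 alternatives ran from -2.52 to -1.16. In this fit limma called 0 of 470 probes (0%) at an adjusted p of 0.05, while 7 had an unadjusted p under 0.05 and the same test with array weights called 14.

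**Figure D2:**
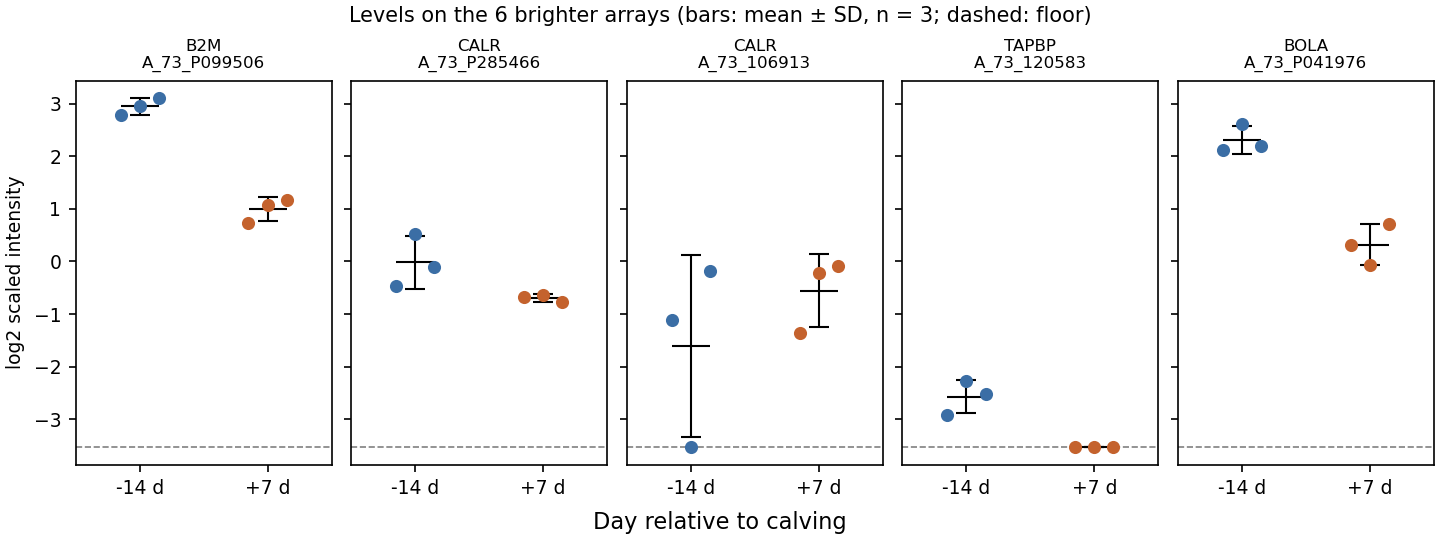
Points are scaled log2 intensities on the 6 brighter arrays, by day relative to calving, for the 4 probes of B2M, CALR and TAPBP that passed the filter and for BOLA A_73_P041976, with the mean and SD of 3 arrays and a dashed line at the floor. B2M lay between 2.79 and 3.11 before calving and between 0.74 and 1.18 after it, and TAPBP lay at the floor of -3.54 on all 3 arrays after calving.

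On C-14 replicate 3 the software's processed intensity departed from the background-subtracted one. The root mean square of the software's surface correction was 1.83 on this array and 0 on every other. Whether that correction made the gap was not tested. The brightest B2M probe had a background-subtracted intensity of 6253 and a processed intensity of 1631 there. On this array the processed intensity was higher than the background-subtracted one for 9 of the 16 probes and lower for 7. Among the 9 probes detected on no array it was higher for 7, such as B2M A_73_116322 (from 5.50 to 422) and CALR A_73_P329471 (from -0.864 to 239), and lower for 2, both of TAP1 (A_73_P390156 from 12.4 to 8.76). Among detected probes CALR A_73_106913 went up from 635.9 to 978.5 and CALR A_73_P285466 down from 670.8 to 232. The background-subtracted intensity is therefore the one quoted unless the processed one is named. The part of this gap in the overlap over 8 arrays was not tested. The fit of 8 arrays run on background-subtracted signal with a floor gave B2M a difference of -2.35 (SE 0.84) and called 0 probes.

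The 3 other B2M probes gave no measured level. Probe A_73_116322 ranged from -0.501 to 14.2 over the 8 arrays, A_73_P099646 from -3.86 to 8.61 and A_73_P109111 from -8.60 to 2.44. The B2M result therefore rests on 1 probe.

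The peptide transporter was hardly measured. None of the 3 TAP1 probes, for 1 chain of the transporter, was well above background on any array, and their highest intensity was 23.7, for A_73_P390156 on C+7 replicate 2. That probe exceeded the 95th percentile of the negative control spots on 6 of 8 arrays, the others on 3 and 4. TAP2, the partner chain, was detected on 1 array, C-14 replicate 3, at an intensity of 29.1, ahead of 11.6 on C-14 replicate 1 and 11.1 on C+7 replicate 3. No direction can be read for either gene at this signal. In the RefSeq gene order TAP1 lies between PSMB8 and PSMB9, genes of immunoproteasome subunits, and PSMB8 follows TAP2 with LOC618733 in between.

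TAPBP, the bridge between transporter and class I molecule, was detected on the 3 brighter C-14 arrays and on 1 of the C+7 arrays. The intensity of probe A_73_120583 was 72.3, 70.3, 125.8 and 2.95 on the C-14 arrays and 19.0, 23.4, 20.9 and -6.37 on the C+7 arrays, with only the 19.0 of C+7 replicate 1 called well above background. Each brighter C-14 array lay above each C+7 array. On the scaled log2 scale the C-14 values were -2.91, -2.28 and -2.53, and the 3 C+7 values lay at or under the common floor of -3.54. The log2 difference of -0.96 (SE 0.19) is thus a lower limit, at least 1.95-fold higher before calving. It was negative in 14 of 16 alternatives and positive with normexp background correction (0.39) and in the authors' values (0.17), settings whose median probe stood at 0.40 and 1.03. Dropping the filter, taking 1 probe a gene, a replicate block and trend and robust fitting could only return the same -0.96.

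CALR, the glycan-binding chaperone, was read by 6 probes that differed from each other. The brightest, A_73_P285466, was detected on the 6 brighter arrays, with intensities of 394.4, 492.3, 670.8 and 14.26 on the C-14 arrays and 170.2, 234.8, 179.6 and 3.75 on the C+7 arrays. Scaled to log2, it read -0.47, 0.53 and -0.11 before calving and -0.67, -0.64 and -0.77 after it. The groups did not overlap, though C-14 replicate 1 lay only just above the C+7 arrays. The difference of -0.68 (SE 0.28), 1.60-fold higher before calving, ran from -0.95 to -0.47 when single arrays were left out, and was 0.72 in the authors' values.

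The second detected CALR probe, A_73_106913, did not share that direction. Its intensity was 252.1, 0.725, 635.9 and 3.69 before calving and 105.9, 312.5, 289.4 and -0.111 after it. C-14 replicate 2 was at the level of an empty spot, on the array where the first CALR probe read 492.3. With that value at the floor the log2 difference was 1.06 (SE 0.95), and without the array it was 0.031. Among the dim CALR probes, A_73_P043756 was detected on C+7 replicate 3 alone (33.5), A_73_P387091 on C-14 replicate 3 alone (18.6), and A_73_P329471 and A_73_P349451 on none.

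PDIA3, the isomerase of the loading complex, was not measured. Its probe A_73_117337 read from -4.87 to 2.29 over the 8 arrays and never exceeded the 95th percentile of the negative controls.

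Across the genes with a measured difference, 3 of the 4 tested probes (B2M, TAPBP and the brightest CALR probe) had all C+7 values below all C-14 values on the brighter arrays. The same was true of 334 of the 2204 probes tested (15.2%), and 244 (11.1%) had all C+7 values above. The 4 probes were those that passed the filter on dim signal, TAPBP only through its C-14 arrays, and do not stand for the other 12, so nothing is read from this count. The gap between the groups was wider for B2M than for CALR, which a ratio within each array shows free of scaling: B2M over CALR A_73_P285466 was 9.56, 5.37 and 9.32 in intensity before calving and 2.66, 3.30 and 3.86 after it. On the log2 scale the ratio was 2.97 ± 0.47 before and 1.69 ± 0.27 after (SD, n = 3 each), 2.42-fold higher before calving, with no overlap. The ratio shows unequal change, not which gene moved, and ratios between probes carry the probes' own affinities.

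**Figure D3:**
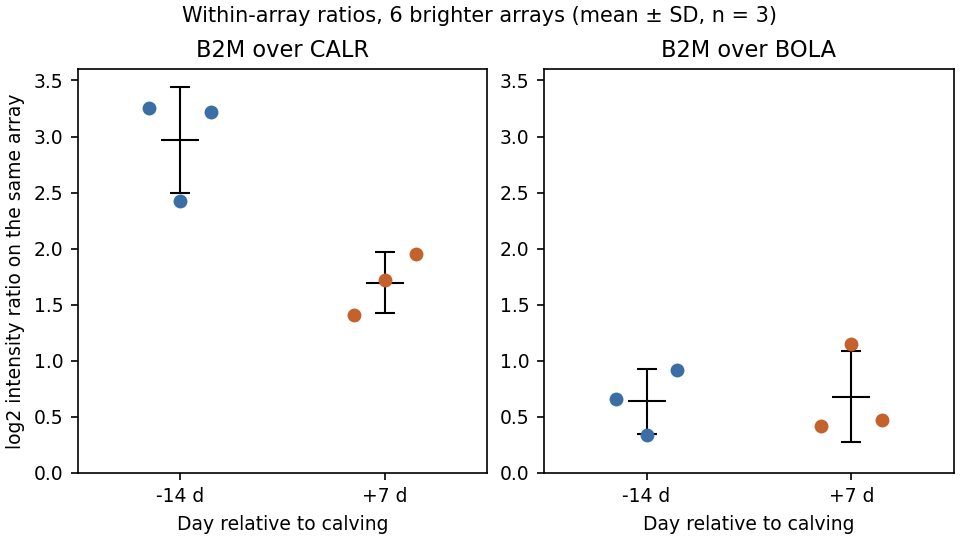
Each point is the log2 ratio of 2 probes' background-subtracted intensities on the same brighter array, with the mean and SD of 3 arrays. B2M over CALR lay between 2.43 and 3.26 before calving and between 1.41 and 1.95 after it, while B2M over BOLA overlapped between the groups.

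The heavy chains that pair with B2M are encoded in cattle by BOLA and related loci. Of the 7 heavy chain genes searched, 2 (BOLA and JSP.1) had a named probe, and 1 of these 2 was called. BOLA probe A_73_P041976 read intensities of 2383, 2094, 3313 and 177 on the C-14 arrays and 339, 350, 500 and -0.524 on the C+7 arrays. Its scaled log2 level was 2.13, 2.62 and 2.19 on the brighter C-14 arrays and 0.32, -0.06 and 0.71 on the C+7 arrays, without overlap. It was lower after calving by a log2 difference of -1.99 (SE 0.26, limma adjusted p = 0.0233). The call held without C-14 replicate 2 and was lost when any of the 5 other arrays was left out, with differences from -2.16 to -1.80. The value was -1.01 with the processed signal and -0.025 in the authors' values, and over all 8 arrays it was -1.75 (SE 1.21, limma adjusted p = 0.981).

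The second BOLA probe, A_73_115812, differed from the first. It was well above background on all 8 arrays, and its difference was 0.14 (SE 0.38, limma adjusted p = 0.860) on the brighter arrays and 0.13 (SE 1.12) on all 8, with the sign turning in several settings. The class I gene JSP.1, which the naming rule does not reach and which was added after its values were seen, stood at -0.32 (SE 0.18, limma adjusted p = 0.371). Class I genes are near copies of each other, so a probe may read several of them. The ratio of B2M to BOLA A_73_P041976 within arrays, chosen after the values were seen, was 0.64 ± 0.29 on the log2 scale before calving and 0.68 ± 0.41 after it (SD, n = 3 each), a difference of 0.04.

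Other genes of the class I pathway were mostly too dim to test. Of 48 genes in 6 lists (heavy chains, other partners of B2M, other loading and folding genes, peptide trimming, immunoproteasome and PA28, transcription factors), 36 had a probe and 10 (12 probes) were tested on the brighter arrays, of which BOLA alone passed the threshold, lower after calving. The 12 probes had 8 negative and 4 positive differences with a median of -0.62, against -0.06 over all tested probes. HSPA5 and PSMB8 passed the filter only through their arrays before calving, and the dimmer PSME2 probe only through those after it. The filter thus favoured the sign that each of these probes had. The share of negative differences over all tested probes is not given, so nothing is read from the count or the median. On all 8 arrays 2 of the genes were tested, BOLA and RELA, and limma called 0 of them, as it called 0 of all 470 probes.

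Among other proteins that pair with B2M, 1 of 6 genes was tested. FCGRT, the heavy chain of the neonatal Fc receptor that carries IgG, stood at a log2 difference of 1.44 (SE 0.62, limma adjusted p = 0.276), a value of opposite sign to B2M and BOLA A_73_P041976 and of the same sign as BOLA A_73_115812. Of 10 further loading and folding genes, 2 were tested and 0 called: HSPA5 (BiP), the general chaperone of the endoplasmic reticulum, at -0.92 (SE 0.32, limma adjusted p = 0.191) and PDIA6, a disulfide isomerase, at 0.088 (SE 0.52). HSPA5 lay at the floor on C+7 replicates 2 and 3, so its difference is a lower limit in size. Of the 7 peptide trimming genes, 5 had a probe and 0 passed the filter.

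The list of immunoproteasome subunits, which cut the peptides, and of PA28 genes had 3 of 6 genes tested and 0 called. PSME1 and PSME2 encode the subunits of the PA28 activator. PSME1 stood at -1.01 (SE 0.56, limma adjusted p = 0.369) and the brighter PSME2 probe at -1.00 (SE 0.25, limma adjusted p = 0.0930), while the second PSME2 probe stood at 0.38 (SE 0.55). PSMB8, the neighbour of TAP1 in the genome, stood at -0.97 (SE 0.52, limma adjusted p = 0.356) and was added after its values were seen. PSMB8 lay at the floor on C+7 replicate 2 and the second PSME2 probe on C-14 replicate 2. Both differences are thus lower limits in size. Of 12 transcription factors of class I genes, 2 were tested and 0 called, STAT2 of the interferon pathway at -0.92 (SE 0.36, limma adjusted p = 0.241) and RELA, a subunit of NF-kappaB, at -0.12 (SE 0.36). RELA lay at the floor on C-14 replicate 3. IRF1 and RFX5 were well above background on no array, and NLRC5 had no named probe.

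**Figure D4:**
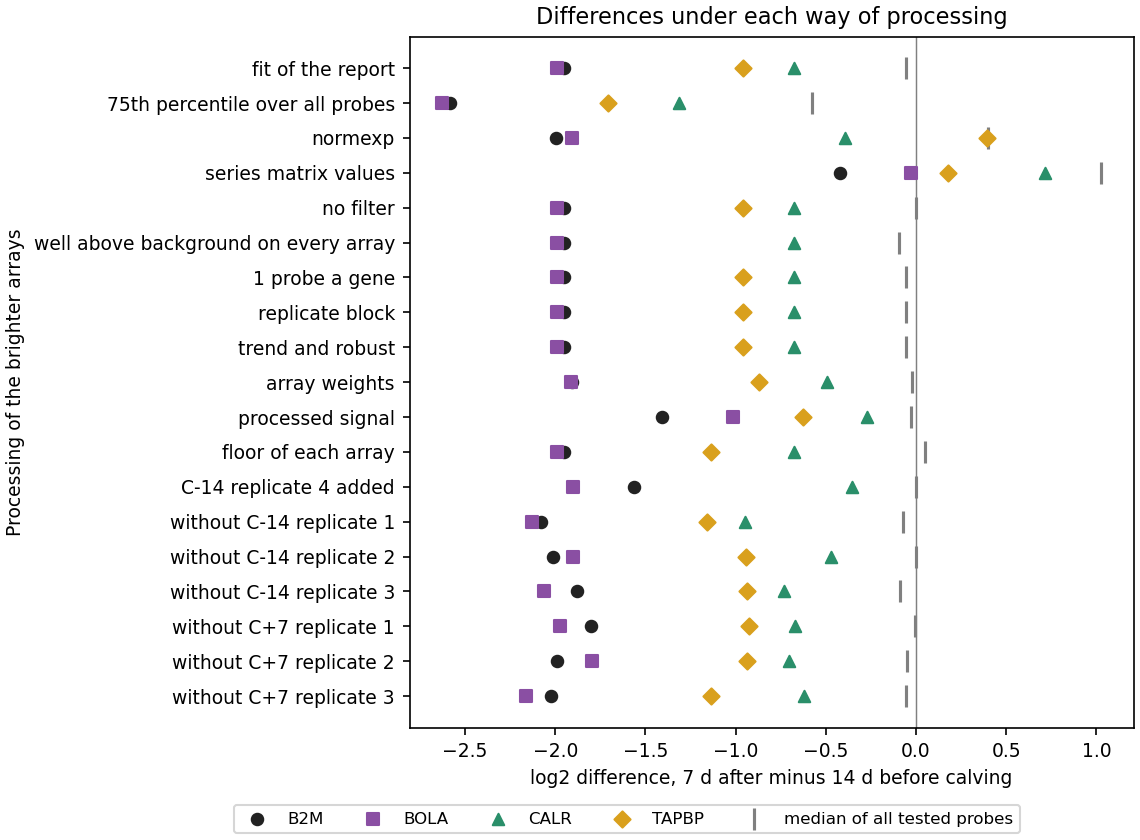
Each row is a way of processing the brighter arrays, and the horizontal axis is the log2 difference, 7 d after minus 14 d before calving, for B2M, BOLA A_73_P041976, CALR A_73_P285466 and TAPBP, with the median of all tested probes as a vertical tick. B2M stayed left of 0 in all settings, from -2.59 to -0.42, and CALR and TAPBP lay left of the median of all probes in each setting that gave them a value.

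Some markers of other blood cells moved with the same contrast. Over all 2204 probes tested on the brighter arrays, 3.22% were called lower and 1.91% higher after calving. In bulk RNA, fewer cells of a type and less RNA of a gene per cell cannot be told apart, and B2M is made by all these cells. Of 10 T cell genes 4 were tested, of which CD247 (-2.64, SE 0.36, limma adjusted p = 0.0272) and CD3E (tested only because of its C-14 arrays and at the floor after calving, a lower limit of -2.03, SE 0.14, limma adjusted p = 0.00774), both parts of the T cell receptor complex, were lower after calving and none was higher. The summed scaled intensity of the T cell list was 4.47 to 5.15 on the brighter C-14 arrays and 1.71 to 1.96 on the C+7 arrays, and CD3D, CD2 and CD28 were detected on no array. In this and the other list sums, a gene at or under the floor counts as 0.0862. Natural killer cell genes summed to 0.743 to 0.914 before and 0.604 to 0.615 after, where 0.604 is all 7 genes at the floor. Of these genes 2 were tested, and GNLY (granulysin) was lower (a lower limit of -1.67, limma adjusted p = 0.0353). It was tested only because of its C-14 arrays and lay at the floor after calving. The part of these cells in the B2M and BOLA values was not tested.

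The monocyte list summed to 3.62 to 5.31 before calving and 3.12 to 3.38 after it, with 2 of 7 genes tested and CSF1R, the receptor of a monocyte growth factor, lower (-1.62, limma adjusted p = 0.0382). For eosinophils, 1 of 5 genes was tested, the lipoxygenase ALOX15, which was lower (-3.02, limma adjusted p = 0.00266). The eosinophil list summed to 1.12 to 1.46 before and 0.225 to 0.239 after. Only ALOX15 and CCR3 of this list had a probe, and CCR3 was well above background on no array. The sum is thus ALOX15 with a floor value added and no second reading. B cell genes summed to 0.575 to 1.30 and 0.710 to 0.950, with 0 of 2 tested genes called (CD79A at -0.41), and HBA, the 1 erythroid gene tested, stood at 1.83 without a call. No basophil or platelet gene passed the filter.

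Of 12 neutrophil genes 7 were tested, and 4 were called higher and 0 lower after calving, where 1.91% of all tested probes were called higher. The granule gene LTF was higher by a log2 difference of at least 3.37 (limma adjusted p = 0.00937). The granule genes PGLYRP1 (at least 2.43, limma adjusted p = 0.0220) and MMP9 (at least 2.14, limma adjusted p = 0.0143) were higher too. These granule genes were at the floor before calving and tested only because of their C+7 arrays, so they could differ in no other direction. The calcium-binding S100A12 was the other called gene, through probe A_73_P050466 (2.29, limma adjusted p = 0.0274). Its second tested probe, A_73_115208, was far dimmer and not called, at 0.57 (SE 0.43, limma adjusted p = 0.518). Of the 9 neutrophil probes tested, 2 had negative differences, CXCR1, an interleukin-8 receptor, at -1.25 (SE 0.25, limma adjusted p = 0.0580) and CXCR2 at -0.062, both named after their values were seen. The neutrophil list summed to 12.8 to 26.0 before and 72.6 to 88.1 after, a sum carried mostly by S100A12. These values moved with the lower B2M and BOLA values on the same arrays, and their part in them was not tested. Over all 8 arrays CD247 stood at -2.44, CSF1R at -0.93 and S100A12 at 1.73, each at a limma adjusted p of 0.981, and the other called marker genes did not pass the filter there. When 1 of the 6 brighter arrays was left out, all these marker genes kept their direction, and the limma call held in 6 of 6 cases for ALOX15, 5 of 6 for LTF (not without C+7 replicate 2), 4 of 6 for CD3E and MMP9 (not without C+7 replicate 2 or 3), 2 of 6 for CD247 and CSF1R (only without C-14 replicate 1 or 2) and 1 of 6 for GNLY (only without C-14 replicate 3), PGLYRP1 (only without C+7 replicate 1) and S100A12 (only without C-14 replicate 2).

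The genes whose level ran most like B2M over the 6 brighter arrays, among 702 genes detected on all 6, were ALOX15 (Pearson r = 0.989), NUCB1 (0.979) and MRPS15 (0.978). ALOX15 is the eosinophil marker given above, NUCB1 encodes a calcium-binding Golgi protein and MRPS15 a mitochondrial ribosomal protein. With each group's mean removed the correlations were 0.42, 0.89 and 0.48, and with normexp 0.73, -0.19 and 0.20. For ALOX15 and MRPS15 the likeness was thus lower within the groups than across them. For CALR A_73_P285466 the most alike were FBXL5 (0.999), a ubiquitin ligase subunit, ATP6V1E1 (0.989), a proton pump subunit, and CRIPT (0.988). Their correlations were 0.97 to 1.00 with group means removed, and 0.92, 0.50 and 0.26 with normexp. The SD of this CALR probe was 0.50 before calving and 0.068 after it. The correlations with group means removed thus rest mainly on the 3 C-14 arrays and say little about the C+7 arrays. CRIPT lay at the floor on C+7 replicate 1. These correlations describe 6 arrays that share slides and scaling, and no p-value is given.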

How the data were processed

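Per the labels' protocols, TRIzol was used to extract the RNA. Spot intensity was deposited as scanner output of Agilent Feature Extraction (9.1 in the submitters' processing notes, but 10.10.1.1 with protocol GE1_1010_Sep10 per the file headers, which name UMD_3.1 for the probes). A series matrix with the authors' log2 values was deposited too. Its rows matched scanner probes with a lowest correlation of 0.999 over 43711 rows, and which of its steps changed the scale and centring is not stated. Probe accessions were named through a RefSeq table (ARS-UCD2.0), from which only names and gene order were taken, and which left 16821 probes unnamed and named 26832.

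Control spots (1417) and outlier flags were left out, and spots of a probe were averaged. To be tested, a probe had to be well above background on every array of 1 group or the other. The comparison of 8 arrays used log2 processed intensity scaled by the 75th percentile over 115 probes detected on all 8. The comparison of the 6 arrays with over 2000 detected probes used background-subtracted intensity scaled over 1091 probes, raised to a common floor at log2 -3.54. Both fits used R 4.3.3 and limma 3.58.1 (lmFit, eBayes, two-sided, Benjamini-Hochberg over all probes tested, threshold 0.05). They were run on simulated data with independent noise, no floor and planted changes larger than any member difference here. That check does not show how the fits do at the sizes reported or near the floor. A fold from the floor is given as "at least".

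The members, gene lists and the fit of 6 arrays were chosen with earlier results of these data known. Named were all members, the genes of each list past the threshold or else the 2 with the largest difference, and the 3 genes most alike to a detected member, except that some list genes are not reported here. The planned normexp alternative (offset 50) used median in place of mean spot signals. Other alternatives changed the scaling, filter, floor and signal, or left out an array. The number of arrays limits the precision.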

Additional observations from a re-analysis of the deposited data

Results flagged for a closer look

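In 2 of the 38 groups of 4 arrays examined, 1 array lay far from the other 3, where chance alone marks about 1 group in 20. Both cases are C-14 replicate 3, on which most B2M and CALR probes had processed intensities unlike the background-subtracted ones. The root mean square of the software's surface correction was 1.83 on that array and 0 on the 3 others of its group. The share of spots at the array's lowest processed intensity was 0.00228% there and 73.4% to 80.4% on the others.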

How the results depend on the processing

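Probe counts moved more than the member directions, which several of the settings could not change. Over the 6 brighter arrays 113 probes were called, against 57 with normexp (46 higher and 11 lower after calving), 5 in the authors' values, 1 without a filter, 50 where detection on every array was asked, 62 with trend and robust fitting, 12 with the processed signal and 11 with C-14 replicate 4 added. Leaving out 1 array gave 4 to 169 calls, lowest without C+7 replicate 3 (4) and replicate 2 (8), and highest without C-14 replicate 2 (169). Scaling on all probes gave 17 higher and 99 lower against 42 and 71, with a median probe of -0.58, and a floor for each array gave 59 and 49. Over 8 arrays 0 were called, 1 without a filter, 14 with array weights, and 0 to 1 when single arrays were left out. Whether the replicate numbers pair the arrays by cow could not be decided, since so few arrays and no list of cows are given. Correlations of deviations were 0.06, -0.26 and 0.26 for the 3 brighter pairs, and 0.58, 0.22, -0.26 and 0.49 for the 4 pairs of all arrays. With the replicate number as a block limma called 0 probes in either comparison, 453 of the brighter arrays' at an unadjusted p under 0.05, so that BOLA A_73_P041976 (-1.99), B2M (-1.95) and all marker genes were not called. The CALR probe A_73_P285466 turned to 0.72 in the authors' values, and TAPBP to 0.39 with normexp and 0.17 in the authors' values.

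Signs of other genes also turned, and the cause was not tested. With normexp, CD3E was 0.039, CD79A 0.042, GNLY 0.19, HSPA5 0.28, PSMB8 0.16, RELA 0.41 and STAT2 0.31. In the authors' values, CD79A was 1.21, CSF1R 0.018, HSPA5 0.76, JSP.1 1.18, PSME1 0.13, PSME2 0.52, RELA 0.82 and STAT2 0.51. Scaling on all probes gave BOLA A_73_115812 -0.49, PDIA6 -0.55 and the second PSME2 probe -0.21. The processed signal gave BOLA A_73_115812 -0.24, CD79A 0.21, JSP.1 0.20 and the second PSME2 probe -0.21. BOLA A_73_115812 was -0.47 with C-14 replicate 4 added and -0.024 over 8 arrays with background-subtracted signal and a floor. Array weights gave CD79A 0.013, PDIA6 -0.043 and RELA 0.059, and a floor for each array gave RELA 0.15. With single arrays left out, BOLA A_73_115812 ran from -0.22 to 0.41 (8 arrays, -0.76 to 0.66), PDIA6 from -0.35 to 0.49, the second PSME2 probe from -0.00085 to 0.99 and RELA from -0.46 to 0.15. Probes not well above background have only an upper bound, which limits TAP1, TAP2 and PDIA3.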
